A study of Schmidtea mediterranea with 11 samples.

Results

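The comparison described here is bruli(RNAi) against control(RNAi) in whole planarians of Schmidtea mediterranea at days 20, 25 and 30 after RNAi, as an account of which transcripts were lost and gained, in what order and at which expression level. It used 6 of the 11 libraries of the study, 1 for each group and day, and each knockdown library was paired with the control library of its day. All worms were adults of the asexual Berlin-1 strain, which the study's methods describe as derived from a single individual. bruli(RNAi) worms were injected with double-stranded RNA (dsRNA) against bruli (Smed-bruno-like) on 3 consecutive days, and control(RNAi) worms with dsRNA coding for GFP, a sequence foreign to the worm. polyA RNA of whole worms was sequenced (TruSeq RNA v2), so every value averages over all cell types. The number of worms in a library is not given in the sources used here, and neither the labels nor the methods say whether the days were separate cohorts. Members were the 15393 of 26562 transcripts whose mean log2(TPM+1) over the 6 libraries was above 1.5, where TPM is the length-scaled share of a transcript in its library. Of the 11169 transcripts left out, 1422 were listed at 0 in all 6 libraries. The filter passed between a mean log2(TPM+1) of 1.5001 (mean of 1.94 TPM) and of 1.5 (mean of 1.84 TPM).

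Planarians replace and regenerate their tissues from neoblasts, adult stem cells that are the dividing cells of the body. When neoblasts are lost, their short-lived progeny are no longer replaced, while long-lived differentiated cells remain for some time. bruli encodes an RNA-binding protein of the CELF family, whose members regulate alternative splicing and the stability and translation of mRNA, and it is expressed in neoblasts. In whole worms, fewer cells of a type and less RNA per cell cannot be told apart.

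The knockdown was made with dsRNA copied from bruli by the pair of primers below, shown because they define the targeted stretch. Both are given as the study lists them, 5′ to 3′ and 22 bases long each, and no base is in capitals.
bruli dsRNA forward primer: ctccactcgtaaattccagtcc
bruli dsRNA reverse primer: ctccctttggtcgttttaattg

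Each deposited TPM column summed to 1000000, and TPM keeps no read count, so the counting error of a transcript is unknown. Between 21224 and 22760 transcripts were above 0 in a library, and the 10 most abundant took 9.80% to 13.1% of the TPM. Of these, the day 30 bruli(RNAi) library had the highest share. The median log2(TPM+1) of the tested transcripts was 4.02 in the day 20 control library and 4.17 and 4.16 in the other 2 control libraries, so that the day 20 control stood apart from them. Results that rest on it are given with the other controls beside them.

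bruli itself (comp2592_c0_seq1) was measured first, as a check of the labels. It stood at 82.9, 83.1 and 84.9 TPM in the control(RNAi) libraries of days 20, 25 and 30, and at 6.33, 3.33 and 4.27 TPM in those of bruli(RNAi). The groups did not overlap, which held on the lower side for 18.4% of all tested transcripts. On the 3 days, 7.63%, 4.01% and 5.03% of the control level was left. The mean difference on log2(TPM+1), which is the scale of all differences below, was -3.94 (standard error 0.15, adjusted p = 0.000451 from limma).

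More transcripts fell than rose after bruli knockdown, and the falls were larger. With the 3 days as replicates, limma called 1058 of the 15393 transcripts lower (6.87%) and 466 higher (3.03%) at a Benjamini-Hochberg adjusted p of 0.05. At an unadjusted p of 0.05 there were 2493 lower and 1881 higher. The called falls had a median difference of -0.63, and 193 of them were past 1 and 27 past 2. The called rises had a median of 0.55, with 30 past 1 and 3 past 2. All called transcripts had the same sign on the 3 days, which held for 25.3% of all tested transcripts on the lower side and for 25.1% on the higher side. The groups did not overlap in 18.4% of the tested transcripts with every bruli(RNAi) library lower, and in 14.9% with every one higher.

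The counts depended on days 25 and 30. Leaving out a day removes its pair of libraries and leaves 1 residual degree of freedom in place of 2. Without day 20 the fit called 1940 lower and 1075 higher, without day 25 it called 76 and 9, and without day 30 it called 36 and 3. A fit without the trend of variance on expression called 83 and 7. The p-values measure only the spread between these libraries.

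The share of TPM in the called transcripts is given for its size. They were called from these same 6 libraries, so the direction of its change follows from the calls. The 1058 falling transcripts took 15.9% to 17.0% of all TPM in the control(RNAi) libraries. After bruli knockdown they took 12.3% at day 20, 10.2% at day 25 and 9.68% at day 30, a share that shrank at each time point. The 466 rising transcripts took 3.04% to 3.26% in controls and 4.16%, 5.52% and 5.14% in bruli(RNAi), where the gain was largest at day 25.

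Day by day, transcripts past a difference of 0.7, the study's threshold for a decrease, were counted in each direction. Single days have 1 library per group and no test. Below -0.7 there were 446 transcripts at day 20 (2.90% of those tested), 905 at day 25 (5.88%) and 1459 at day 30 (9.48%). Above 0.7 there were 640 at day 20 (4.16%), 436 at day 25 (2.83%) and 616 at day 30 (4.0%). In the deposited values losses thus grew in number at each time point and gains did not, but gains also grew at each time point after median centring (525, 592 and 896), with quantile-normalized controls (417, 539 and 663) and with all 6 libraries quantile-normalized (484, 577 and 835).

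The day 20 gains rested on the control library of that day. Between controls, 1111 transcripts were higher and 136 lower past 0.7 at day 25 than at day 20, 914 were higher and 206 lower at day 30 than at day 20, and 163 were higher and 320 lower at day 30 than at day 25. Of the 640 day 20 gains, 56 (8.75%) were also past 0.7 against the mean of the other 2 controls. In those 640 transcripts the day 20 control was 0.82 below the other controls in the median, and the bruli(RNAi) library 0.13 above them. Of the 446 day 20 losses, 308 (69.1%) were past -0.7 against the other 2 controls, and the bruli(RNAi) library was 0.85 below them in the median. At days 25 and 30, the share of losses that was also past the threshold against the other 2 controls was 57.7% and 60.9%, and that of gains 62.2% and 45.6%.

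Losses made up 41.1%, 67.5% and 70.3% of the transcripts past 0.7 at days 20, 25 and 30, and this split moved with the scaling. Centring each library on its median gave 50.9%, 52.9% and 53.1%, quantile normalization of the controls gave 60.9%, 57.7% and 66.9%, and the mean of the 3 controls as the reference gave 75.7%, 59.4% and 71.9%. The median difference of all tested transcripts was 0.08, -0.03 and -0.07 on the 3 days as deposited. The rise in the number of losses from day 20 to day 30 kept its direction under each of these scalings, with 545, 664 and 1016 after centring, 649, 735 and 1343 with quantile-normalized controls, and 495, 700 and 1144 against the mean of the 3 controls.

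**Figure D1:**
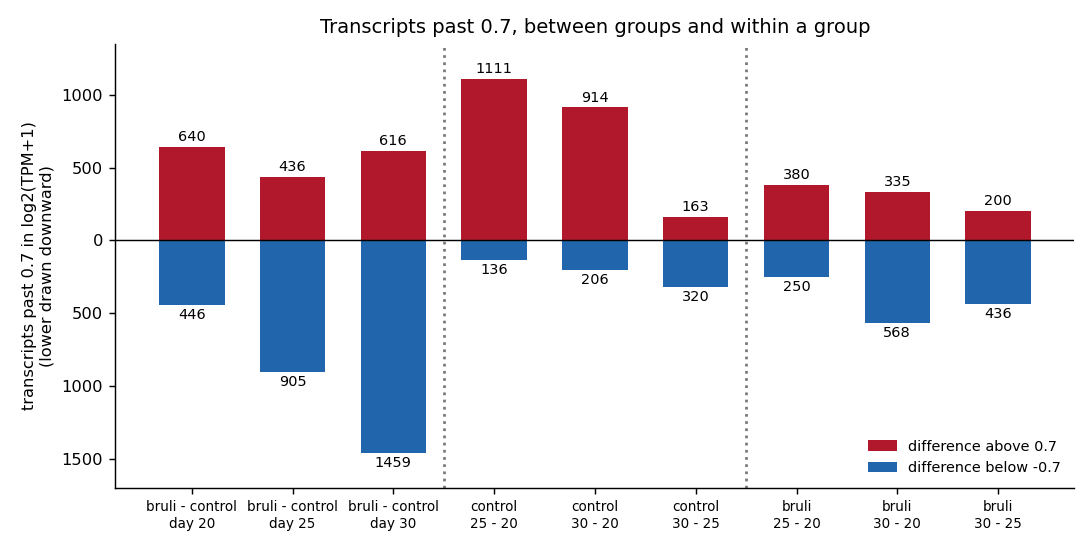
Number of transcripts with a difference in log2(TPM+1) above 0.7 (red, upward) or below -0.7 (blue, downward), of 15393 tested. The first 3 bars compare bruli(RNAi) with control(RNAi) of the same day, and the others compare libraries of different days within a group, where control day 25 against day 20 reached 1111 higher.

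Early losses recurred at later days more often than early gains. Of the 446 transcripts below -0.7 at day 20, 262 (58.7%) were also below it at day 25 and 293 (65.7%) at day 30, against 5.88% and 9.48% of all tested transcripts on those days. On all 3 days 223 were below -0.7, which was 50.0% of the day 20 losses and 15.3% of the day 30 losses. Most of the day 30 losses were therefore not past the threshold before: 849 of the 1459 were past it at day 30 alone. Of the 640 gains of day 20, 50 (7.81%) were also above 0.7 at day 25 and 75 (11.7%) at day 30, against 2.83% and 4.0% of all tested transcripts, and 21 were above it on all 3 days. From day 25 to day 30 the shares were closer: 540 of the 905 losses (59.7%) and 202 of the 436 gains (46.3%) remained. Each day has its own control library, so these overlaps share no library. Across the 15393 transcripts, the differences of days 25 and 30 had a Pearson correlation of 0.615, those of days 20 and 25 one of 0.415 and those of days 20 and 30 one of 0.401, as a description over transcripts of the same 6 libraries.

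In the deposited values, the median fall of the called transcripts was larger at each later day, and the median rise changed little after day 25. The median difference of the 1058 called lower was -0.50, -0.65 and -0.76 at days 20, 25 and 30. From day 20 to day 30 the difference moved by a median of -0.27 in the called falls and 0.22 in the called rises. Over all tested transcripts it moved by -0.14, in the direction of the falls. In 575 of them (54.4%) the fall was larger at each later day, against 31.5% of all tested transcripts, and 708 (66.9%) had their largest fall at day 30. Only 89 (8.41%) fell most at day 20. The share with a fall that grew day by day was 32.6% when each library was centred on its median. The 466 called higher had medians of 0.40, 0.58 and 0.61, with the largest rise at day 25 in 188 (40.3%), at day 30 in 211 (45.3%) and at day 20 in 67 (14.4%).

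The time at which a called fall passed -0.7 varied. Of the 1058, 219 were past it on all 3 days, 172 from day 25 on and 196 at day 30 alone, and 367 were past it on no single day. Of the 466 called higher, 20 were past 0.7 on all 3 days, 104 from day 25 on and 48 at day 30 alone, and 234 on no day. A test of the change of the difference per 5 days, in limma with 1 residual degree of freedom, called 0 transcripts in either direction (0.0%), with a smallest adjusted p of 0.186. At an unadjusted p of 0.05, 1496 differences fell and 451 rose over the days. The order over days is therefore a description, also for the single genes below.

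Loss and gain differed along the range of expression. Transcripts were placed in bins of their mean log2(TPM+1) over the 6 libraries. At day 30, 18.0% of the 1475 transcripts in the lowest bin (1.5 to 2) were below -0.7. The share was lowest, at 4.95%, in the 2261 transcripts between 5 and 6, and reached 12.7% of the 551 transcripts at 8 and above. Neither end held under every setting. The share of the lowest bin was 2.70% when every library had to pass the filter and 2.71% with a pseudocount of 5. A transcript of that bin can pass the mean filter through the group where it is high, and the cause of these lower shares was not tested. The share of the highest bin was 4.54% after centring each library on its median.

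The low end also varied most between libraries of 1 group. Between the day 30 and day 25 controls, 9.15% of the lowest bin was below -0.7, against 0.18% of the highest bin. The standard deviation of that difference between controls was 0.50 in the lowest bin and 0.17 in the highest, and the median standard error of the fit was 0.24 and 0.10. For the gains of day 20, 12.1% of the lowest bin was above 0.7, and there the day 25 control exceeded the day 20 control by 0.7 in 17.3% of transcripts.

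The most abundant transcripts were lost late. In the highest bin, 6, 17 and 70 of the 551 transcripts were below -0.7 at days 20, 25 and 30, which was 1.09%, 3.09% and 12.7%. In the lowest bin, 119, 198 and 266 were. The day 30 share of the highest bin was also 4.54% after quantile normalization of all 6 libraries, and 11.4% against the mean of the 3 controls.

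The test across the 3 days called a rising share of transcripts lower with expression, from 3.53% in the lowest bin to 7.61% between 5 and 6 and 18.9% (104 transcripts) in the highest. Called rises went from 0.07% in the lowest bin to 7.45% between 6 and 8 and 4.72% in the highest. The size of the called falls went the other way, with a median of -1.23 in the lowest bin and -0.59 in the highest. The median standard error was 0.24 in the lowest bin and 0.10 in the highest, so a smaller difference could pass at high expression. How far this shaped the shares and sizes of the calls was not tested.

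**Figure D2:**
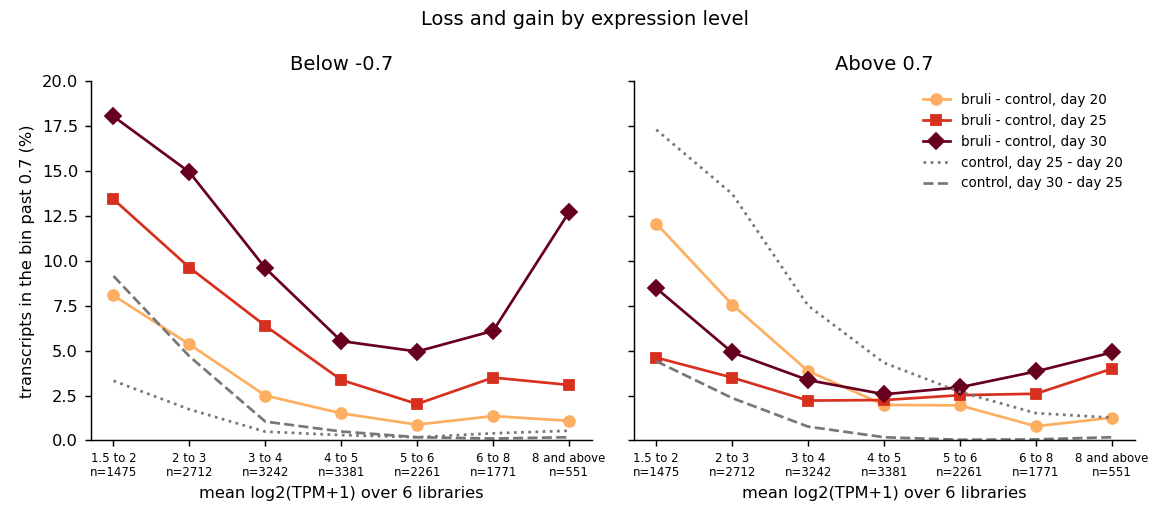
Percentage of the transcripts in each bin of mean log2(TPM+1) that were below -0.7 (left) or above 0.7 (right) in bruli(RNAi) against control(RNAi) at days 20, 25 and 30, with the same share between control libraries in grey. At day 30 the losses reached 18.0% in the lowest bin, 4.95% between 5 and 6 and 12.7% in the highest, of which the first was 2.70% with every library past the filter and the last 4.54% after median centring.

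Over the mean of the 3 days, markers of neoblasts fell furthest of the named cell type markers. smedwi-1 (comp659_c0_seq1), a piwi gene of neoblasts, was at 192.9, 206 and 212 TPM in controls at days 20, 25 and 30 and at 26.8, 17.2 and 8.63 TPM after bruli knockdown. pcna (comp1920_c0_seq1), the clamp of DNA replication, was at 56.4, 55.2 and 56.9 TPM in controls and at 5.63, 3.43 and 5.91 TPM after knockdown. In both, the controls stayed level and the groups were far apart on each day. The courses differed in that smedwi-1 went lower at each time point, from 13.9% of control at day 20 to 4.07% at day 30, whereas pcna was at 9.98% at day 20 and 10.4% at day 30. Mean differences were -3.59 for smedwi-1 (standard error 0.28, adjusted p = 0.00509 from limma) and -3.28 for pcna (standard error 0.14, adjusted p = 0.000686 from limma), and both calls held without any 1 day. The change per 5 days was -0.83 for smedwi-1 (standard error 0.09, adjusted p = 0.201 from limma) and 0.02 for pcna (standard error 0.17, adjusted p = 0.97 from limma), neither past the test.

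Markers of neoblast subclasses fell less. soxP-2 (comp8483_c0_seq1), a transcription factor of the sigma class, was at 11.5, 11.7 and 12.8 TPM in controls and at 4.71, 4.94 and 4.22 TPM after knockdown, a level reached by day 20 and kept. p53 (comp5563_c0_seq1), a marker of the zeta class from which the epidermis is renewed, was at 41.8, 39.2 and 39.1 TPM in controls and at 29.6, 18.4 and 13.1 TPM after knockdown, so that it fell at each time point. The differences were -1.21 for soxP-2 (standard error 0.14, adjusted p = 0.0138 from limma) and -1.02 for p53 (standard error 0.19, adjusted p = 0.028 from limma). Both calls were lost without day 25 (adjusted p = 0.0627 and 0.112 from limma) and without day 30 (0.0903 and 0.127).

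Markers of early epidermal progeny, the postmitotic cells on their way to the epidermis, fell progressively. prog-1 (comp332_c0_seq1) was at 391, 268 and 381 TPM in controls and at 141.5, 74.4 and 36.6 TPM after knockdown. prog-1-1 (comp478_c0_seq1) was at 487, 319 and 419 TPM against 162, 89.8 and 39.9 TPM, and prog-2-1 (comp69_c0_seq1) at 1985, 1695 and 1771 TPM against 1139, 794 and 425 TPM. In each of the 3 genes the knockdown level was lower at each later day and no control library overlapped it. Such separation on the lower side held for 18.4% of all tested transcripts. The mean differences were -2.21, -2.25 and -1.32 (adjusted p = 0.0201, 0.0179 and 0.025 from limma), and at day 30 the 3 differences were -3.34, -3.36 and -2.06. The change per 5 days was -0.94, -0.89 and -0.63 (adjusted p = 0.203, 0.205 and 0.203 from limma). prog-1 and prog-1-1 stayed past the test without any 1 day, and prog-2-1 did not without day 25 (adjusted p = 0.0811 from limma) or without day 30 (0.0903).

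At day 20 the order of the differences, from the largest fall, was pcna, smedwi-1, prog-1-1, prog-1, soxP-2, prog-2-1 and p53. At day 30 it was smedwi-1, prog-1-1, prog-1, pcna, prog-2-1, p53 and soxP-2. smedwi-1, prog-1-1 and prog-1 had moved past pcna, whose difference was -3.11 at day 20 and -3.07 at day 30, and prog-2-1 and p53 had moved past soxP-2, with -1.13 and -1.40. Differences between genes at 1 day have no test here.

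**Figure D3:**
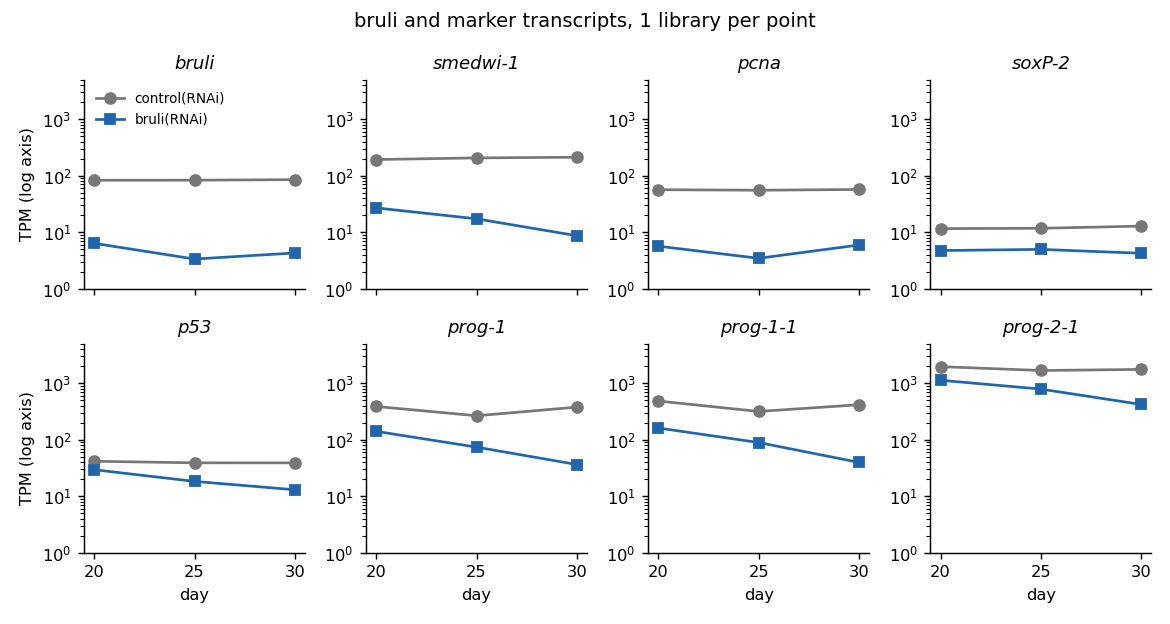
TPM (log axis) of bruli and of 7 marker transcripts at days 20, 25 and 30, in control(RNAi) (grey circles) and bruli(RNAi) (blue squares), 1 library per point. All 8 were lower in bruli(RNAi) on each day, and smedwi-1, p53 and the 3 prog genes went down at each time point.

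RNA-binding proteins (RBPs) fell by an amount that followed how far each was enriched in neoblasts. The study sorted wild type worms by flow cytometry into X1, the fraction of dividing neoblasts, and Xins, the fraction that survives irradiation and holds differentiated cells. The RBPs that it annotated were binned here by its log2 difference in expression between X1 and Xins, which comes from other samples than these. The study itself judged enrichment against the median of core spliceosomal components, whereas the bins here take 0 as their reference. Of 285 RBPs tested, 103 were called lower (36.1%) and 3 higher (1.05%), against 6.87% and 3.03% of all tested transcripts. Without day 25 and without day 30, 8 and 4 were called lower. Transcripts of like expression, in the bins between 4 and 6, were called lower in 7.19% and 7.61% of cases.

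From the most to the least neoblast-enriched bin, the share called lower went down. It was 11 of 15 at an enrichment of 3 or more, 40 of 56 at 2 to 3, 44 of 102 at 1 to 2, 7 of 59 at 0 to 1, 1 of 33 at -3 to 0 and 0 of 20 below -3, where limma gave no transcript lower at an unadjusted p of 0.05 either and 5 higher. The median differences followed the same order, at -0.87, -0.64, -0.38, -0.19, 0.08 and 0.11. bruli and smedwi-1 belong to the top bin, and without bruli 10 of 14 were called, with a median of -0.85. Without day 25 the 6 counts were 5, 3, 0, 0, 0 and 0, and without day 30 they were 4, 0, 0, 0, 0 and 0. After median centring the medians kept this order, at -0.82, -0.59, -0.33, -0.14, 0.13 and 0.15.

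The most neoblast-enriched bin also deepened most. At 3 or more, the medians were -0.63, -0.85 and -1.04 at days 20, 25 and 30, and 6, 12 and 14 of the 15 were below -0.7. At 2 to 3 they were -0.51, -0.63 and -0.74, with 10, 20 and 34 of 56 below -0.7. At 1 to 2 they went from -0.27 to -0.45, and 14 of 102 were below -0.7 at day 30. In the bins below 0 the medians stayed between 0.05 and 0.18 on each day. All tested transcripts had medians of 0.08, -0.03 and -0.07 on the 3 days, with 2.90%, 5.88% and 9.48% below -0.7. After centring, the top bin still went from -0.68 to -0.93, the 2 to 3 bin from -0.57 to -0.64, and the 1 to 2 bin stayed at -0.32 and -0.34.

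**Figure D4:**
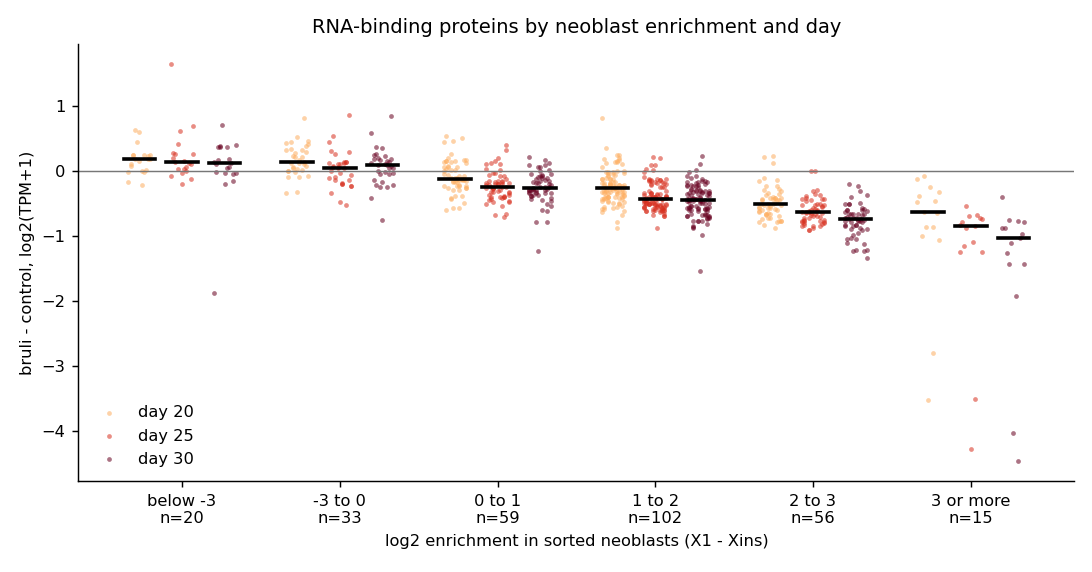
Difference in log2(TPM+1) between bruli(RNAi) and control(RNAi) for each of 285 RNA-binding proteins (points) at days 20, 25 and 30, by their log2 enrichment in sorted neoblasts (X1 - Xins), with black bars at the medians. The medians went from 0.18, 0.13 and 0.12 below -3 to -0.63, -0.85 and -1.04 at 3 or more.

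Each of the 7 Piwi and germ granule proteins was called lower, against 36.1% of the tested RBPs and 6.87% of all tested transcripts. Piwi proteins bind piRNAs and silence transposons, and germ granule helicases and Tudor proteins act with them in cytoplasmic granules that neoblasts share with germ cells. The transcript comp1258_c0_seq1, whose best human hit is PIWIL1, was at 208, 219 and 224 TPM in controls and at 98.96, 92.2 and 81.9 TPM after knockdown (difference -1.25, standard error 0.09, adjusted p = 0.00509 from limma). comp1985_c0_seq1, with the germ granule helicase DDX4 (Vasa) as its best human hit, was at 91.2, 90.1 and 89.2 TPM against 45.3, 40.0 and 36.7 TPM (difference -1.14, standard error 0.09, adjusted p = 0.00509 from limma). Controls were level in both, the distance from them was larger at each later day (47.5%, 42.1% and 36.7% of control for comp1258_c0_seq1, and 49.6%, 44.3% and 41.2% for comp1985_c0_seq1), and both calls held without any 1 day. Another DDX4 homologue, comp2082_c0_seq1, fell by 0.78 on the log2 scale. The Tudor proteins TDRD12, TDRD9 and TDRKH had differences of -0.71, -0.57 and -0.47, of which that of TDRD12 went from -0.35 at day 20 to -1.13 at day 30. Of the 7, 3 were called without day 25 and 3 without day 30.

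Many core spliceosomal proteins were called lower, with smaller differences than the neoblast markers. Of 77 such proteins 42 passed the test (54.5%, against 6.87% of all tested transcripts) and 35 did not, and the median difference was -0.36, -0.51 and -0.55 at days 20, 25 and 30. Below 0 were 70 of the 77 at day 20 and all 77 at day 30, beside 6101 and 8673 of the 15393 tested transcripts. Without day 25 there were 3 called and without day 30 there were 0. After centring the medians were -0.42, -0.42 and -0.44, so that the deepening over the days was not seen there, and 38 were called.

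The 7 Sm proteins, which form the ring around the spliceosomal snRNAs, are given as a complete set, chosen after values were seen. All 7 were called lower, against 6.87% of all tested transcripts, with a median of -0.68 (adjusted p from 0.00971 to 0.0288 from limma). SNRPF (comp1056_c0_seq1) was at 95.1, 95.3 and 96.6 TPM in controls and at 55.4, 54.3 and 41.2 TPM after knockdown, a difference of -0.93. SNRPD1 (comp1826_c0_seq1) was at 55.5, 61.7 and 55.6 TPM against 31.8, 33.9 and 29.2 TPM, and SNRPE (comp741_c0_seq1) at 69.7, 70.5 and 65.2 TPM against 47.0, 51.5 and 51.1 TPM. None of the 3 overlapped between groups, which held on the lower side for 18.4% of all tested transcripts. At day 20 the 7 proteins stood at 57.3% to 79.3% of control and at day 30 at 42.7% to 78.4%. SNRPF, SNRPN, SNRPD1 and SNRPD2 had their lowest share at day 30, and SNRPE its highest. Without day 25, 2 of the 7 stayed past the test, and without day 30, 0 did.

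**Figure D5:**
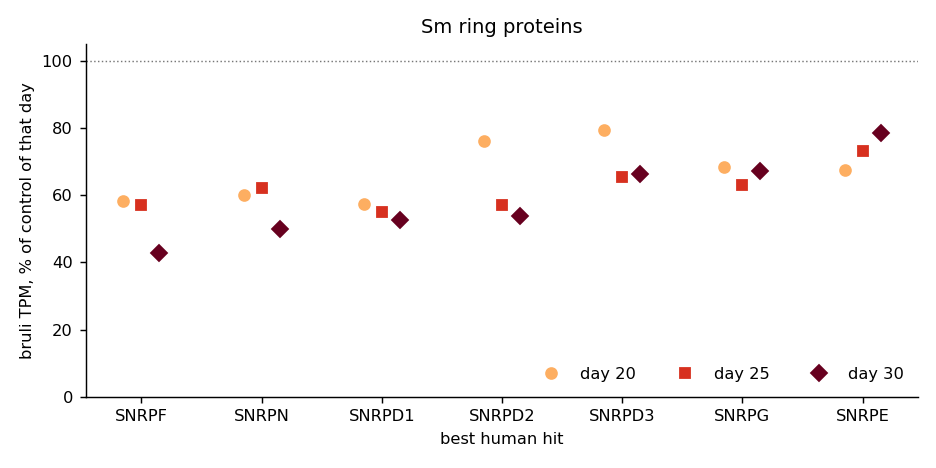
TPM in bruli(RNAi) as a percentage of control(RNAi) of the same day for the transcripts whose best human hits are the 7 Sm proteins, at days 20, 25 and 30, with 1 library per group behind each point. All points lie below 100%, from 42.7% for SNRPF at day 30 to 79.3% for SNRPD3 at day 20.

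Other parts of the splicing machinery are given by the largest falls of their list or enrichment bin. The core list as a whole had a median difference of -0.45. SNRPA (comp2444_c0_seq1), which binds the U1 snRNA, was at 30.0, 28.2 and 29.3 TPM in controls and 17.2, 15.5 and 11.9 TPM after knockdown (difference -0.94, standard error 0.12). The other transcript with this best human hit, in the bin of 1 to 2, had a difference of -0.28. SNRNP35 (comp9913_c0_seq1), a protein of the minor spliceosome, went from 10.3, 8.12 and 9.95 TPM to 5.58, 5.01 and 4.51 TPM (difference -0.79, standard error 0.15). The largest falls of the core list were in the transcripts with the KEGG terms K12834 (-1.09), K12845 (-1.02) and K12846 (-0.93), of which K12845 was at 52.4, 46.7 and 43.2 TPM in controls and at 26.8, 21.0 and 21.1 TPM after knockdown. Their adjusted p-values in limma lay between 0.00664 for K12845 and 0.0483 for K12846. Without day 30 each of these 5 falls, the other SNRPA transcript aside, was over 0.05 (0.0524 to 0.207). Without day 25, K12845 alone of the 5 stayed below 0.05.

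SR proteins and hnRNPs, which bind pre-mRNA and promote or repress the use of exons, were in part called lower. Of 15 SR and TRA2 proteins 10 were called lower, with medians of -0.40, -0.51 and -0.49 on the 3 days, and of 13 hnRNPs 8, with medians of -0.41, -0.46 and -0.51. These shares were 66.7% and 61.5%, against 36.1% of the tested RBPs and 6.87% of all tested transcripts. Among those that did not pass, SRSF7 had a difference of -0.06 and HNRNPDL one of -0.20. HNRNPL (comp1327_c0_seq1) was at 148, 135 and 148 TPM in controls and 93.3, 75.02 and 71.1 TPM after knockdown (difference -0.85, standard error 0.10), and HNRNPA2B1 (comp986_c0_seq1) at 219.5, 211.5 and 207 TPM against 127, 123 and 125 TPM (difference -0.76, standard error 0.07). HNRNPF and an HNRNPK homologue (comp2111_c0_seq1) had differences of -0.75 and -0.79. The TRA2B homologues comp3781_c0_seq1 and comp4073_c0_seq1 had differences of -0.66 and -0.64, and TRA2A one of -0.60. SRSF10 (comp661_c0_seq1) went against the general order: it was at 52.3, 43.9 and 42.4 TPM in controls and at 28.0, 29.9 and 29.9 TPM after knockdown, so that its difference was largest at day 20 (-0.88) and -0.54 and -0.49 later. Its knockdown level was the same on the 3 days, and the control of day 20 was the highest. Without day 25, 0 of the SR and TRA2 proteins and 1 of the hnRNPs were called, and without day 30, 0 of either. Several of these transcripts share a best human hit, and reads of close paralogs could have been split between them.

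Other RNA-binding factors with changes past the test were spread over functions. TIA1 (comp2139_c0_seq1), an RBP of stress granules that also regulates splicing, was at 53.4, 56.6 and 58.8 TPM in controls and at 33.5, 29.9 and 28.1 TPM after knockdown (difference -0.87, standard error 0.10). A MEX3D homologue (comp1999_c0_seq1), of a family of KH-domain proteins, went from 60.1, 57.4 and 55.6 TPM to 40.4, 35.5 and 23.0 TPM, with its largest step at day 30. Its neoblast enrichment was only 0 to 1, the bin in which it fell most (-0.83). HDLBP (comp553_c0_seq1, vigilin) was the 1 protein called lower among those at -3 to 0, at 501, 590 and 627 TPM against 402, 426 and 370 TPM (difference -0.52, standard error 0.11). None of these 3 stayed past the test without day 25 or without day 30 (adjusted p = 0.0702 to 0.177 from limma).

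Of 49 DEAD/DEAH-box helicases, a family that remodels RNA in splicing, ribosome assembly and translation, 10 were called lower (20.4%, against 6.87% of all tested transcripts) and 2 higher (4.08%, against 3.03%). At days 20, 25 and 30, 1, 4 and 15 were below -0.7, beside 2.90%, 5.88% and 9.48% of all tested transcripts. The medians were -0.17, -0.37 and -0.46, and -0.22, -0.29 and -0.35 after centring. DDX52, DHX37 and DDX47, whose human namesakes act in ribosome assembly, had differences of -0.85, -0.77 and -0.67. DHX37 (comp10340_c0_seq1) was at 13.1, 12.03 and 11.9 TPM in controls and 7.78, 6.89 and 5.95 TPM after knockdown, and DDX52 (comp7870_c0_seq1) at 9.65, 11.03 and 14.2 TPM against 5.23, 7.93 and 5.03 TPM. Without day 25 and without day 30, 0 of the 49 were called lower.

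Translation factors had a median difference of -0.28 and small RNA machinery one of -0.18, beside -0.32 of the tested RBPs. Of the 12 tested members of the translation factor list 4 were called lower. These were RPS3 (comp269_c0_seq1), a protein of the small ribosomal subunit, EIF3G, and a pair of transcripts with the best hit EIF4A3, a component of the exon junction complex. That was 33.3%, against 36.1% of the tested RBPs and 6.87% of all tested transcripts. RPS3 was at 1491, 1526 and 1539 TPM in controls and at 1190, 946 and 870 TPM after knockdown (difference -0.61, standard error 0.12). The main PABPC1 homologue (comp93_c0_seq1), the poly(A)-binding protein, was at 3043, 2947 and 3090 TPM against 2757, 2577 and 2452 TPM and did not pass the test (difference -0.22, adjusted p = 0.247 from limma). Of 7 proteins of the small RNA machinery, 1 was called lower (14.3%, against 6.87% of all tested transcripts). This was AGO2 (comp1194_c0_seq1), at 147, 149 and 147 TPM against 118, 111 and 107 TPM (difference -0.40), and DICER1 had a difference of 0.09. The other AGO2 homologues, comp3861_c0_seq1 and comp7594_c0_seq1, had differences of -0.18 and 0.23 and did not pass the test. None of these 5 calls held without day 25 or without day 30.

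Splicing factors that the study knocked down differed in their response. Besides bruli, 4 of the other 19 tested were called lower. Together with bruli the share was 25.0%, against 36.1% of the tested RBPs and 6.87% of all tested transcripts. rbfox-1 (comp6567_c0_seq1) was at 16.3, 16.5 and 18.7 TPM in controls and at 9.31, 9.59 and 8.12 TPM after knockdown (difference -0.86, standard error 0.13), and ptbp-2 (comp2799_c0_seq1), of the polypyrimidine tract binding family, at 98.2, 101.2 and 107 TPM against 64.6, 57.9 and 51.3 TPM (difference -0.81, standard error 0.10). ptbp-3 and ptbp-1 had differences of -0.57 and -0.56. The other 15 lay between -0.11 and 0.19, which included mbnl-1 (0.08), the mbnl-like genes and the other celf genes (celf-2, 0.08). Of the 5, bruli alone was called without day 25 or without day 30.

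RBPs of differentiated tissues, the markers used for other cell types of the worm, were level. The 17 members have best human hits among the ELAVL, NOVA, MSI, RBFOX, QKI, CPEB, MEX3A and CELF families, known from neurons and muscle. Only transcripts with an X1-Xins difference below 0 were taken. This left out neoblast-enriched relatives, among them bruli (-3.94), rbfox-1 (-0.86, called lower) and an ELAVL4 homologue (comp10994_c0_seq1, -0.11, not called). The 17 had medians of 0.17, 0.03 and 0.04 at days 20, 25 and 30, beside 0.08, -0.03 and -0.07 of all tested transcripts. Their differences lay between -0.19 and 0.32, and limma called 0 in either direction, with 0 lower and 1 higher at an unadjusted p of 0.05. Of all tested transcripts, 6.87% were called lower and 3.03% higher. The 17 genes that the study lists with conserved exons regulated in stem cells likewise had 0 calls, a median of 0.08, and 0 lower and 1 higher at an unadjusted p of 0.05.

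Transcripts with the same best human hit but different neoblast enrichment often differed in their response. A comparison could be made for 37 hits whose transcripts lay in different enrichment bins, bruli left out. A shared hit does not hold expression level or function constant. In 32 of the 37 the members of the highest bin were lower, relative to control, than those of the lowest bin, with a median gap of -0.34. The gaps ranged from -1.01 to 0.44, and some were small, such as -0.005 for DDX46. The numbers were 27, 30 and 31 of 37 at days 20, 25 and 30, with median gaps of -0.27, -0.32 and -0.36. For TIA1, comp3605_c0_seq1 in the top bin was at 54.8, 59.7 and 63.9 TPM in controls and at 39.4, 37.1 and 30.6 TPM after knockdown, whereas the homologue below -3 had a difference of 0.01. For RBFOX1 the values were -0.86 for the member at 2 to 3 and 0.14 for the member below -3, and for DHX8 they were -0.61 at 3 or more and a mean of 0.36 over 4 members at -3 to 0. EIF3G was an exception, with -0.03 in the higher and -0.47 in the lower bin. These hits were chosen from the list above and are no separate evidence, and the gaps have no test.

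Few RBPs rose past the test. A DHX8 homologue (comp12329_c0_seq1), of a helicase family that releases spliced mRNA, was at 10.3, 11.3 and 8.26 TPM in controls and at 12.9, 21.3 and 15.6 TPM after knockdown (difference 0.67, standard error 0.15, adjusted p = 0.0422 from limma). A DDX3Y homologue (comp3817_c0_seq1) was at 42.4, 48.7 and 49.9 TPM against 57.8, 66.7 and 75.2 TPM (difference 0.49, standard error 0.08, adjusted p = 0.023 from limma), higher at each time point. The third, comp3575_c0_seq1, has no human hit and was at 15.6, 19.2 and 18.1 TPM against 21.5, 29.8 and 30.1 TPM (difference 0.58, standard error 0.10, adjusted p = 0.0246 from limma). The groups did not overlap in any of them, which held on the higher side for 14.9% of all tested transcripts. None stayed past the test without day 25 or without day 30 (adjusted p = 0.136 to 0.223 from limma).

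Outside the lists, whose members alone carry names here, the 2 largest changes past the test in each direction were as follows. The largest rise of all tested transcripts, 2.27, did not pass the test. comp2548_c0_seq1 was at 58.3, 93.8 and 67.8 TPM in controls and at 3.99, 9.53 and 5.87 TPM after knockdown (difference -3.36, standard error 0.11, adjusted p = 0.000451 from limma), with a fall of the same size from day 20 on. comp2787_c0_seq1 was at 74.1, 68.6 and 65.6 TPM against 12.02, 6.80 and 3.19 TPM (difference -3.23, standard error 0.25, adjusted p = 0.00509 from limma), falling at each time point as smedwi-1 did. Of the rises, comp1787_c0_seq1 was at 27.8, 27.6 and 26.6 TPM against 44.3, 218 and 188 TPM (difference 2.12, standard error 0.41, adjusted p = 0.0328 from limma), which placed most of its rise between days 20 and 25. Without day 25 and without day 30 its adjusted p was 0.112 and 0.167. comp2369_c0_seq1 was at 2.79, 14.2 and 11.1 TPM against 19.2, 58.6 and 41.1 TPM (difference 2.06, standard error 0.14, adjusted p = 0.00408 from limma), and its lowest library in each group was that of day 20. The calls of comp2548_c0_seq1, comp2787_c0_seq1 and comp2369_c0_seq1 held without any 1 day.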

How the data were processed

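polyA RNA of 6 whole-worm libraries was compared. Per the study's methods, reads were adapter-trimmed and cleared of rRNA. The authors aligned what was left against the Dresden transcriptome (Bowtie2 2.1.0), counted with HTSeq 0.6.1p1, and deposited TPM values. How counts became TPM, and the role of CASAVA 1.8.2, are not given in the sources used here. TPM is a share, so the loss of abundant transcripts raises all others, and depth is not kept.

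Values were analysed as log2(TPM+1), which understates changes of weakly expressed transcripts. limma 3.58.1 (R 4.3.3) fitted group, with day as a block and a mean-variance trend (2 residual and 4.53 prior degrees of freedom), and in a separate fit the linear change of the difference per 5 days. Benjamini-Hochberg adjustment was over 15393 transcripts, and calls were made at 0.05. The day pairs libraries by label. Deviations from the group means correlated at 0.162, 0.181 and 0.0365 within days. The fits were also run on data simulated with normal errors of the fitted variances, so this does not check their assumptions. For the group difference, 88 of 100 changes of 1, 36 of 100 of 0.5 and 17 of 15193 unchanged transcripts were called. For the change per 5 days these numbers were 80, 30 and 48. Tables were made with Python 3.11.15 and pandas 2.3.3, figures with matplotlib 3.10.9.

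The members and lists were chosen with earlier results of these data known. Lists and primers came from the study's supplementary tables, and human hits are best BLAST hits of the study. The tables used here do not pair the markers other than bruli with identifiers. Their identity is therefore less sure than that of the list members. Named were bruli, the markers, up to 4 members per list and direction with the largest difference past the test and 1 sign on 3 days, and up to 2 unnamed transcripts per direction. The other Sm proteins, the Tudor proteins, the other ptbp genes, celf-2, mbnl-1, PABPC1, DICER1, SRSF7, HNRNPDL, the TIA1 homologue at 3 or more and RBFOX1 and EIF3G homologues were named after their values were seen. So were the other SNRPA transcript and the other AGO2 homologues.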

Additional observations from a re-analysis of the deposited data

How the results depend on the processing

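Of the 49 transcripts named by rule, none changed direction under the alternatives run. Their calls held in all 49 with a pseudocount of 0.5 or 5, with 1.5 required in every library and with 9 libraries in the fit (mbnl(RNAi) added), and in 39 with no filter, 48 with quantile-normalized controls, 47 with all 6 libraries quantile-normalized, 48 with median centring, 10 with no trend, 48 without day 20, 13 without day 25 and 10 without day 30. Without the replicate block (day left out of the model) 46 held, and 1220 transcripts were called lower and 477 higher. Counts of transcripts lower and higher were 685 and 209 with no filter, 1728 and 1038 with 9 libraries, 83 and 7 with no trend, and ranged from 36 to 1940 and from 3 to 1075 when 1 day was left out. Leaving out 1 library amounts to leaving out its day under the block. The test of change over days gave 2 falling transcripts with 9 libraries.

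Per-day counts moved with the pseudocount, the threshold and the choice of control. With a pseudocount of 5, transcripts lower and higher were 154 and 137 at day 20, 344 and 192 at day 25, and 651 and 293 at day 30. With a threshold of 1 they were 173 and 218, 346 and 144, and 583 and 241. At day 20, 267 were lower and 396 higher when every library had to pass the filter, 417 were higher with quantile-normalized controls and 159 against the mean of the 3 controls. The day 30 share lower of the lowest expression bin was 2.71% with a pseudocount of 5, 2.70% with every library past the filter and 8.88% with a threshold of 1, and that of the highest bin 4.54% with centring or with all libraries quantile-normalized and 1.63% with a threshold of 1. The share of called falls that grew day by day was 32.6% with centring. RBPs at 3 or more called lower were 4 with no trend and from 4 to 15 when 1 day was left out. The cause of these shifts was not tested. With 1 library per group and day, no single day could be tested, and weakly expressed transcripts carried the largest spread between controls.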
